A study of Arabidopsis thaliana with 30 samples.

Results

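Total RNA of Arabidopsis thaliana seedlings after 9 h of hypoxia was compared with total RNA after 2 h of hypoxia. The samples were chosen by title: 3 arrays of 9 h hypoxia stress without recovery and 3 arrays of 2 h hypoxia stress, which is 6 of the 30 samples of the series. The 9 h minus 2 h change of non-stress seedlings, here called air, was measured on 6 other total RNA arrays, 3 at 9 h and 3 at 2 h. Treatments began when the light period ended, so the air groups give the change between an early and a late hour of the night.

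All groups, the air controls included, were whole seedlings 7 days old of 1 genotype, 35S:His6FLAG-RPL18B (Col-0), a single-copy transgene that puts a tagged ribosomal protein under the broadly active 35S promoter. The seedlings stood in dim light, and the labels give 3 independent biological replicate experiments. The labelled molecule is polyA RNA, of which 3 µg per sample was made into biotin-labelled target for Affymetrix arrays. The series also holds total RNA after 1 h of recovery and polysomal RNA of the same 5 conditions, which enter the shared estimate of the spread and are quoted only where they touch a result.

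When oxygen falls short, plant mitochondria cannot pass electrons on, and cells turn to glycolysis and fermentation for energy. A conserved set of hypoxia genes, driven largely by ethylene response factors that oxygen would otherwise destabilise, is switched on in every organ within hours. Small heat shock proteins and their partner chaperones hold unfolding proteins in a soluble state; in plants they are best known from heat but are also found after oxygen stress.

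Values are log2 signals, a change is the difference of 2 group means on that scale, and the error of a change is its standard error (SE). "Rose" and "fell" are used where limma's moderated test gave a Benjamini-Hochberg adjusted p under 0.05 over 22746 probe sets. The arrays of a group correlated at 0.9896 or more. Array means of the 12 arrays lay between 5.754 and 5.805, but array medians averaged 5.185 after 9 h of hypoxia, 5.328 after 2 h of hypoxia, 5.346 after 9 h of air and 5.387 after 2 h of air. The number of arrays, 3 a group, limits the precision of each change.

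The arrays also differed in signals outside the protein-coding genes. The 25S ribosomal RNA probe set read 13.06, 13.24 and 13.12 after 9 h of hypoxia, against 11.35, 9.39 and 11.34 after 2 h of hypoxia. The air arrays read 6.17, 6.81 and 6.29 at 9 h and 6.55, 7.39 and 6.61 at 2 h, so both hypoxic groups lay above both air groups without overlap. Replicate 2 of 2 h hypoxia stood apart from the other arrays of its group, and part of the counts below are also given without it. The Bacillus poly-A controls averaged 6.89 ± 0.40 after 9 h of hypoxia, 6.39 ± 0.39 after 2 h of hypoxia, 5.83 ± 0.18 after 9 h of air and 5.90 ± 0.20 after 2 h of air (SD, n = 3 each). The 3′ minus 5′ difference of the GAPDH control probe sets was 0.172 ± 0.195 after 9 h of hypoxia and 0.488 ± 0.087 after 2 h of hypoxia (SD, n = 3 each). The part of these array-level differences in the gene changes was not tested.

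**Figure D1:**
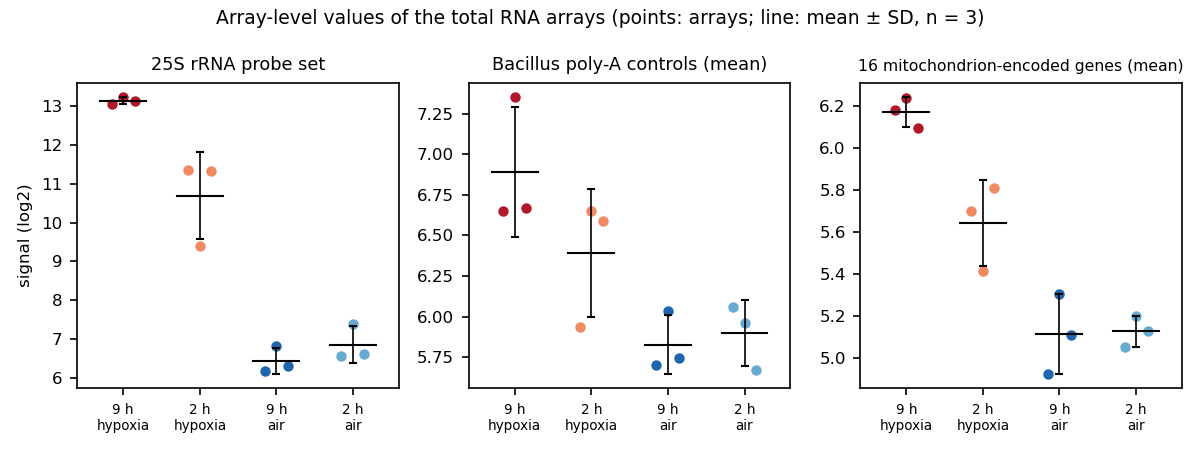
Array-level log2 signals of the 12 total RNA arrays by group: the 25S rRNA probe set, the mean of the Bacillus poly-A controls and the mean of 16 mitochondrion-encoded genes. Points are arrays and lines are means with SD (n = 3); the 25S signal was 13.06 to 13.24 after 9 h of hypoxia and was 9.39 in replicate 2 of 2 h hypoxia.

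Between 9 h and 2 h of hypoxia, 3141 probe sets rose (13.8% of 22746) and 4026 fell (17.7%), or 31.5% in either direction. Changes of at least 2-fold were found in 489 of those that rose and 934 of those that fell. Over the same hours in air, 640 probe sets rose (2.81%) and 965 fell (4.24%), with 190 and 158 past 2-fold. With the replicate number as a block, 3838 rose and 4696 fell between the hypoxic groups, and 963 rose and 1408 fell in air. The median size of change was 0.213 under hypoxia and 0.116 in air. The groups did not overlap between 9 h and 2 h of hypoxia for 46.1% of all probe sets. Without replicate 2 of 2 h hypoxia, 2411 rose and 3321 fell. With replicate number 3 left out of all groups, 4742 probe sets were called between the hypoxic groups, 742 in air and 2047 for the difference between those changes.

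The balance between rises and falls depended on how arrays were scaled. With array medians subtracted, 7416 probe sets rose and 3027 fell between the hypoxic groups, so that rises were 71.0% of the calls and not 43.8%. That scaling moved the median change of all probe sets to 0.185, a shift of 0.143, against which small changes are to be read.

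The change under hypoxia minus the change in air was tested directly. It was positive for 1848 probe sets (8.12%) and negative for 2299 (10.1%). Without replicate 2 of 2 h hypoxia it was positive for 1443 and negative for 1897. With the replicate block it was positive for 2587 and negative for 3014. Of the 7167 probe sets called between the hypoxic groups, 3450 (48.1%) also differed from air in the same direction, 1471 upward and 1979 downward. That count was 2664 without replicate 2 of 2 h hypoxia and 4673 with the replicate block. In the main fit another 541 changed the same way under hypoxia and in air with no difference passing, 193 upward and 348 downward. Opposite changes were called for 194 probe sets, 95 upward and 99 downward under hypoxia. With the replicate block they were called for 408, and without replicate 2 of 2 h hypoxia for 157. Finally, 399 probe sets changed in air but not under hypoxia, with the difference passing. Across all 22746 probe sets, the change under hypoxia and the change in air, which share no array, had a Pearson correlation of 0.272; probe sets are not independent replicates.

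**Figure D2:**
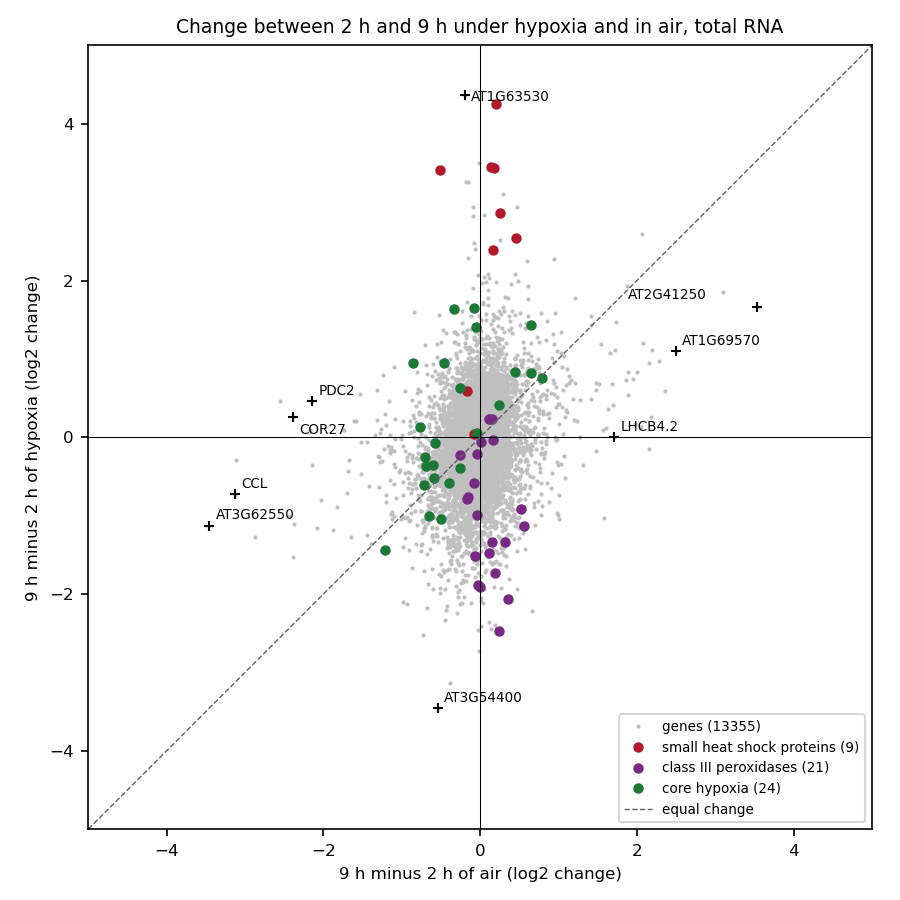
Log2 change between 9 h and 2 h of hypoxia (vertical axis) against the log2 change between 9 h and 2 h of air (horizontal axis) for 13355 genes in total RNA, with 3 gene groups coloured and some named genes marked. Small heat shock proteins lie high on the vertical axis near 0 in air, while PDC2, CCL and COR27 lie far to the left with smaller changes under hypoxia.

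Small heat shock protein genes made up 4 of the 10 largest rises, which were taken among genes without overlap between the hypoxic groups. Of 9 measured, 8 rose between 9 h and 2 h of hypoxia and none fell, beside 13.8% and 17.7% of all probe sets. Their median change was 2.86, against 0.0426 for all probe sets. In air 2.81% of all probe sets rose and 4.24% fell. None of the 9 genes was called there, and their median change was 0.164. All 8 also passed the test of the difference between hypoxia and air, upward, beside 8.12% of all probe sets. Without replicate 2 of 2 h hypoxia, 8 still rose (median 2.43) and 6 passed that difference.

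AT1G53540, a cytosolic class I small heat shock protein, read 8.80, 9.75 and 9.78 after 9 h of hypoxia, against 5.91, 4.34 and 5.31 after 2 h of hypoxia. In air it read 4.40, 3.73 and 3.89 at 9 h and 3.75, 3.79 and 3.87 at 2 h. The air groups overlapped, while lack of overlap between the hypoxic groups was a condition for choosing the gene. The change was 4.26 ± 0.54 under hypoxia (SE, adjusted p = 8.33e-07) and 0.20 in air (adjusted p = 0.922).

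AT2G29500, another class I member, read 8.42, 9.62 and 9.55 after 9 h of hypoxia, against 5.88, 5.23 and 6.26 after 2 h of hypoxia. Its change was 3.41 ± 0.34 under hypoxia (SE, adjusted p = 2.53e-08). In air the change was -0.51 (adjusted p = 0.523). Both genes belong to 1 closely related class, and cross-hybridisation between their probe sets was not tested.

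ATHSP22.0 (AT4G10250), the endoplasmic reticulum member, read 7.68, 8.51 and 8.44 after 9 h of hypoxia, against 5.57, 4.06 and 4.63 after 2 h of hypoxia. AT1G52560, also a small heat shock protein, read 6.56, 7.72 and 7.93 after 9 h of hypoxia, against 4.11, 3.55 and 4.25 after 2 h of hypoxia. AT5G37670 read 7.88, 9.06 and 8.55 after 9 h of hypoxia, against 6.08, 4.79 and 6.05 after 2 h of hypoxia. Lack of overlap between the hypoxic groups was a condition for choosing ATHSP22.0 and AT1G52560. AT5G37670 did not overlap either, beside 46.1% of all probe sets. ATHSP22.0, AT1G52560 and AT5G37670 rose by 3.46 ± 0.41, 3.43 ± 0.29 and 2.86 ± 0.39 (SE, n = 3 arrays a group, limma adjusted p = 2.95e-07, 2.04e-09 and 2.84e-06). AT5G51440, AT1G54050 and AT2G19310 rose by 2.54, 2.39 and 0.60, and AT4G21870 changed by 0.05 and was not called. In 7 of the 8 members that rose, replicate 2 was the lowest of the 2 h hypoxic arrays.

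**Figure D3:**
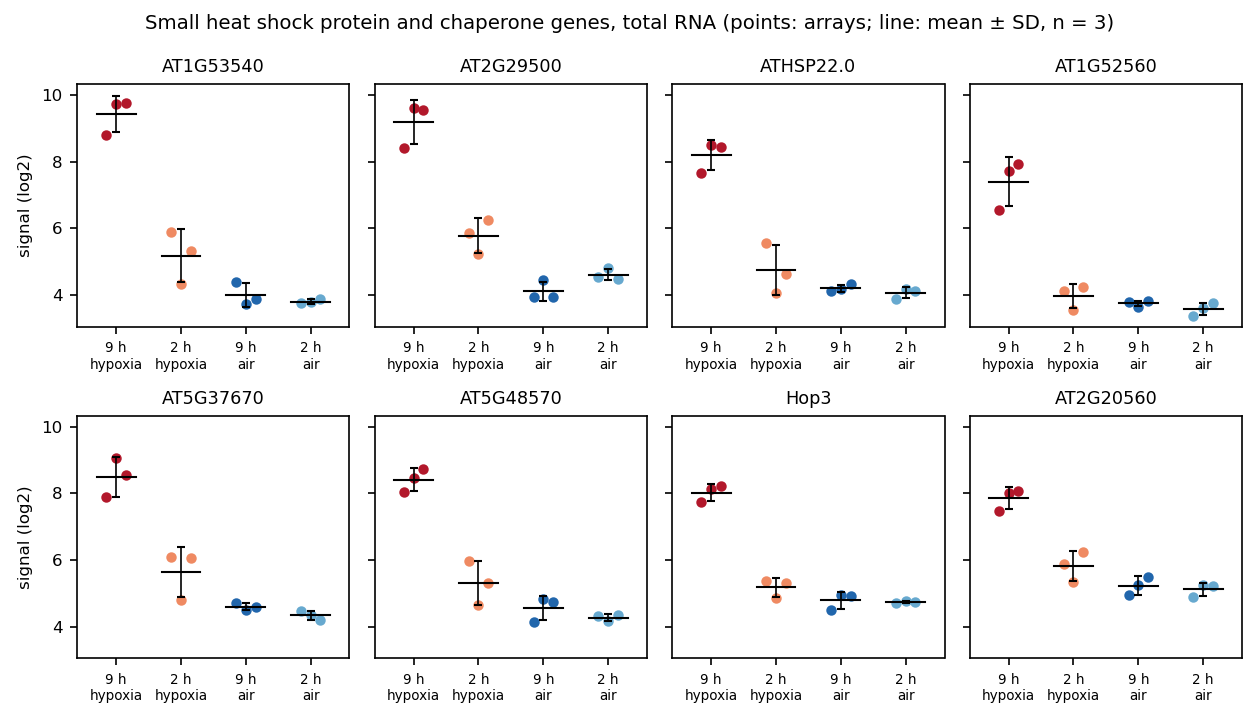
Log2 signal of 5 small heat shock protein genes and 3 chaperone genes in each total RNA array by group, with means and SD (n = 3). All 8 genes are higher on every array of 9 h hypoxia than on any array of 2 h hypoxia, and AT1G53540 stays between 3.73 and 4.40 in air.

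The chaperones that work with heat shock proteins moved the same way. Of 9 measured, 6 rose and 1 fell between the hypoxic groups, beside 13.8% and 17.7% of all probe sets, with a median of 0.80. None was called in air, where 2.81% of all probe sets rose and 4.24% fell. For 5 of the 9 the rise exceeded the change in air by the test of the difference, beside 8.12% of all probe sets. With the replicate block that difference passed for 5 upward and 1 downward. Without replicate 2 of 2 h hypoxia, 5 rose and 1 fell.

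AT5G48570, a peptidyl-prolyl isomerase and Hsp90 co-chaperone, read 8.04, 8.47 and 8.72 after 9 h of hypoxia, against 5.96, 4.63 and 5.32 after 2 h of hypoxia. Hop3 (AT4G12400), the adaptor that joins Hsp70 to Hsp90, read 7.74, 8.12 and 8.21 after 9 h of hypoxia, against 5.38, 4.85 and 5.32 after 2 h of hypoxia. The 9 h arrays lay above the 2 h arrays in both genes, which for AT5G48570 was a condition of its choice. The changes were 3.11 ± 0.38 and 2.84 ± 0.26 (SE, limma adjusted p = 4.55e-07 and 4.42e-09). AT2G20560, a DnaJ co-chaperone, rose by 2.04, HSA32 (AT4G21320), needed for lasting heat tolerance, by 1.62 and Hop2 (AT1G62740) by 0.80. SGT1A rose by 0.68. Hsp70-2 fell by 0.69, and Hop1 and AT3G09440 were not called, at -0.26 and 0.11. The 16 heat shock factor genes listed carry no gene name on these arrays' probe table and are not reported.

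Of 5 endoplasmic reticulum folding genes measured, none rose and 2 fell, beside 13.8% and 17.7% of all probe sets. Their median was 0.135, and 3 of the 5 changes were positive. With the replicate block 1 rose, and with array medians subtracted 1 rose. CRT1b (AT1G09210), a calreticulin that folds glycoproteins, read 7.09, 6.90 and 7.20 after 9 h of hypoxia, against 8.70, 8.53 and 8.48 after 2 h of hypoxia, a fall without overlap. It fell by 1.51 on the log2 scale (SE 0.12, adjusted p = 1e-09), and ATERDJ3B (AT3G62600), a DnaJ protein of the same compartment, fell by 1.31. Both falls exceeded the change in air, by -1.81 and -1.13 in the difference.

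The other 6 of the 10 largest rises, outside the small heat shock proteins, were AT1G63530, AT2G20500, AT1G08310, AT1G72800, AT5G48570 described above, and AT1G59660. The largest was AT1G63530, whose function is not known here: it read 10.75, 10.46 and 10.65 after 9 h of hypoxia, against 6.99, 4.90 and 6.84 after 2 h of hypoxia. Its air values were 4.41, 4.43 and 4.34 at 9 h and 4.64, 4.54 and 4.59 at 2 h. The change was 4.37 ± 0.41 under hypoxia (SE, adjusted p = 1.02e-08), and 3.70 without replicate 2 of 2 h hypoxia.

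AT2G20500 read 8.78, 9.09 and 9.09 after 9 h of hypoxia, against 5.48, 5.19 and 5.80 after 2 h of hypoxia, with a change of 3.50 ± 0.27 (SE, adjusted p = 4.45e-10). AT1G72800 read 11.17, 10.83 and 10.59 after 9 h of hypoxia, against 8.54, 6.52 and 7.75 after 2 h of hypoxia, a change of 3.26. Lack of overlap was a condition for the 10 largest rises and is no result here. Replicate 2 was the lowest 2 h hypoxic array in all 10 of them. AT1G08310, an alpha/beta-hydrolase, rose by 3.26, and AT1G59660, a nucleoporin-like gene, by 2.94, or by 2.14 without that array. The largest rises were chosen for their size, and that array was also the lowest of its group in the 25S signal. In polysomal RNA AT1G63530 rose by 4.42. The 25S probe set read 4.26 ± 0.92 there after 9 h and 3.67 ± 0.23 after 2 h of hypoxia (SD, n = 3 each). A link between the 25S signal and the rises was not tested.

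Among the falls, the largest was in AT3G54400, an aspartyl protease. It read 5.57, 5.74 and 5.75 after 9 h of hypoxia, against 8.92, 9.60 and 8.92 after 2 h of hypoxia. The air arrays gave 9.89, 9.94 and 9.77 at 9 h and 10.54, 10.33 and 10.35 at 2 h. Both hypoxic groups lay below the air groups, and the change between them was -3.46 ± 0.21 (SE, adjusted p = 1.98e-11).

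AT4G11190, a dirigent-like protein of lignan and lignin chemistry, read 5.15, 5.17 and 5.79 after 9 h of hypoxia, against 7.96, 8.97 and 8.57 after 2 h of hypoxia, a change of -3.13 ± 0.21 (SE, adjusted p = 8.16e-11). ZW9 (AT1G58270), a TRAF-like gene, read 7.73, 7.10 and 7.63 after 9 h of hypoxia, against 10.09, 10.22 and 10.32 after 2 h of hypoxia, a change of -2.73 ± 0.22 (SE, adjusted p = 1.25e-09). In air ZW9 lay between 10.07 and 10.40 at both times, so its 2 h hypoxic arrays fell within the air range and its 9 h hypoxic arrays did not. AT1G62780 fell by 2.52, AT5G23830, a lipid-recognition protein, by 2.46, DRT100 (AT3G12610), a leucine-rich repeat protein, by 2.45 and AT2G33180 by 2.40. AT5G54370 fell by 2.40 and GSTU26 (AT1G17190), a glutathione S-transferase, by 2.35. The 10 largest falls, which include AT4G30170 described next, were taken among genes without overlap between the hypoxic groups. Their changes without replicate 2 of 2 h hypoxia were all still falls, from -3.24 in AT3G54400 to -2.21 in GSTU26.

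Class III peroxidases are secreted enzymes that stiffen cell walls and handle hydrogen peroxide, many of them in roots. Of 29 listed, 21 were measured, and 15 of these fell and none rose between 9 h and 2 h of hypoxia. Their median change was -0.99, and 17.7% of all probe sets fell. In air none was called and the median was 0.11. The difference from air passed for 11, all downward, beside 10.1% of all probe sets. Without replicate 2 of 2 h hypoxia, 14 fell.

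AT4G30170 read 6.02, 5.13 and 5.87 after 9 h of hypoxia, against 8.19, 8.53 and 7.72 after 2 h of hypoxia. The gene read 9.78, 9.69 and 9.78 at 9 h of air and 9.52, 9.45 and 9.57 at 2 h of air. Lack of overlap between the hypoxic groups was a condition for choosing it, and the change was -2.47 ± 0.26 (SE, adjusted p = 4.94e-08). AT2G18980 read 5.18, 4.60 and 5.19 after 9 h of hypoxia, against 6.86, 7.14 and 7.18 after 2 h of hypoxia, a change of -2.07 ± 0.20 (SE, adjusted p = 1.09e-08). AT4G26010, AT4G11290 and AT5G66390 fell by 1.91, 1.88 and 1.74. In polysomal RNA, taken relative to each array's mean, 6 of the 21 fell and 1 rose, beside 17.5% and 16.0% of all probe sets. AT4G26010 changed by 0.08 there (limma adjusted p = 0.749).

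Of the root markers, 5 were measured and all 5 fell, with a median of -0.59, beside 17.7% of all probe sets that fell. The difference from air was negative for 3 of the 5. In polysomal RNA relative to array means 1 of the 5 fell and 4 were not called, with a median of 0.07. The only shoot marker measured, RCA, changed by 0.06 in total RNA and was not called. AT5G66390 and AT1G34510 stand in both the root and the peroxidase lists. PYK10 (AT3G09260), a beta-glucosidase of root endoplasmic reticulum bodies, read 12.34, 12.22 and 12.20 after 9 h of hypoxia, against 13.00, 13.20 and 12.90 after 2 h of hypoxia. The root hair expansins EXPA18 and EXPA7 changed by -0.40 and -0.35, and in air at 9 h EXPA7 read 5.65 to 5.82. In whole seedlings, fewer root cells and less of these RNAs per root cell cannot be told apart. The root fall rests on few genes: 3 of the 5 fell without replicate 2 of 2 h hypoxia, 3 with array medians subtracted and 4 with the replicate block. EXPA7 lost the call under 9 of 16 alternatives and EXPA18 under 7 of 17.

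Some genes for cell wall growth also fell. Of 12 expansins and related wall genes, 7 fell and none rose, against 3 falls and 1 rise in air. For 4 of the 12 the difference from air was negative, among them EXPA8, which rose in air and is described below. XTH16 (AT3G23730), a xyloglucan-modifying enzyme, read 5.39, 4.90 and 5.06 after 9 h of hypoxia, against 6.77, 7.40 and 7.56 after 2 h of hypoxia, a change of -2.13 ± 0.20 (SE, adjusted p = 7.7e-09). EXLA1, an expansin-like gene, fell by 1.27 under hypoxia and changed by -1.65 in air, so its fall did not differ from air (difference 0.37, adjusted p = 0.56). EXPA4 fell by 1.17. Of 22 trichome birefringence-like genes, whose products acetylate wall polysaccharides, 8 fell and 1 rose, beside 17.7% and 13.8% of all probe sets; TBL25 fell by 1.05. Without replicate 2 of 2 h hypoxia 4 of those 22 fell, which is near that share, and with array medians subtracted 5 fell and 6 rose. In the list of 12 wall genes, 4 fell with array medians subtracted.

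Many genes for cytosolic ribosomal proteins fell, and many others were not called. Of 82 large-subunit genes 43 fell, 1 rose and 38 were not called, with a median of -0.34, and of 49 small-subunit genes 24 fell, none rose and 25 were not called, with a median of -0.26. Of all probe sets 17.7% fell and 13.8% rose. Without replicate 2 of 2 h hypoxia, 32 large-subunit and 21 small-subunit genes fell. In air no large-subunit gene and 1 small-subunit gene was called, beside 2.81% of all probe sets that rose and 4.24% that fell. The difference from air was negative for 27 large-subunit and 18 small-subunit genes, beside 10.1% of all probe sets. With the replicate block, that difference was negative for 44 large-subunit genes. With array medians subtracted, 30 large-subunit and 20 small-subunit genes fell, 3 of each rose, and the medians were -0.20 and -0.12.

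AT5G67510, a large-subunit protein gene, read 8.21, 8.32 and 8.21 after 9 h of hypoxia, against 9.89, 10.22 and 9.93 after 2 h of hypoxia, a change of -1.77 ± 0.20 (SE, adjusted p = 1.15e-07). AT3G57490, of the small subunit, read 5.65, 5.46 and 5.76 after 9 h of hypoxia, against 6.65, 7.23 and 7.04 after 2 h of hypoxia, a change of -1.35 ± 0.15 (SE, adjusted p = 1.44e-07). Neither gene overlapped between the hypoxic groups. AT3G44590 and AT4G34555 fell by 1.22 and 1.26. In polysomal RNA relative to array means, 55 large-subunit and 33 small-subunit genes fell, beside 17.5% of all probe sets.

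**Figure D4:**
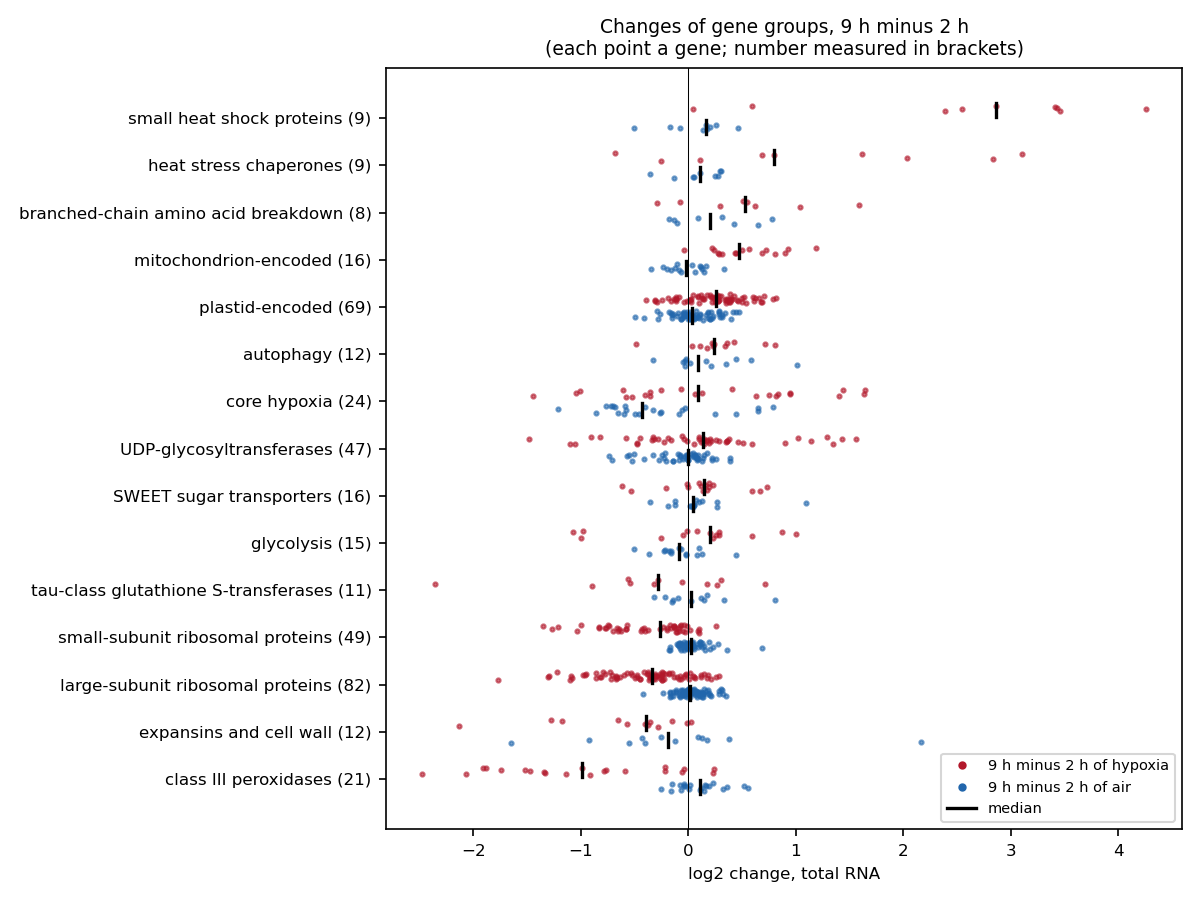
Log2 change between 9 h and 2 h for the measured members of 15 gene groups, under hypoxia (upper points of each row) and in air (lower points), with medians as bars. The small heat shock proteins have a median of 2.86 under hypoxia and 0.164 in air, and the class III peroxidases of -0.992 and 0.109.

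The hypoxia genes shared by many organs were already high after 2 h. The 24 measured genes of a core list of 43 averaged 10.31, 10.48 and 10.31 on the 9 h hypoxic arrays, against 10.12, 10.10 and 10.24 on the 2 h hypoxic arrays. In air the same mean was 5.74, 6.04 and 5.85 at 9 h and 6.04, 6.31 and 6.14 at 2 h. Between the hypoxic groups 9 rose and 7 fell, beside 13.8% and 17.7% of all probe sets. In air 2 rose and 9 fell, beside 2.81% and 4.24%. The median change was 0.10 under hypoxia and -0.43 in air. The difference from air passed for 7 genes, all upward, but for 3 without replicate 2 of 2 h hypoxia. With the replicate block it passed for 8 upward and 1 downward.

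AT3G03270, a universal stress protein gene, read 12.21, 12.50 and 12.28 after 9 h of hypoxia, against 10.69, 10.59 and 10.75 after 2 h of hypoxia, a change of 1.65 ± 0.14 (SE, adjusted p = 2.1e-09). TIL (AT5G58070), a lipocalin, rose by 1.44 and AT3G10020 by 1.40, both without overlap. AT2G15880 read 7.97, 6.30 and 6.80 after 9 h of hypoxia, against 6.58, 4.42 and 5.17 after 2 h of hypoxia; these groups overlapped, although the change of 1.64 passed the test (adjusted p = 0.00222), but neither without replicate number 3 (adjusted p = 0.0789) nor in the fit of these 2 groups alone (adjusted p = 0.068). The largest fall was AT5G44730, a haloacid dehalogenase-like gene, with -1.44 under hypoxia and -1.22 in air. AT3G10040, the trihelix repressor HRA1 that damps the hypoxia response, read 8.73, 8.87 and 8.52 after 9 h of hypoxia, against 9.51, 10.15 and 9.48 after 2 h of hypoxia. It fell by 1.01 (adjusted p = 0.000602), and its difference from air was -0.35 (adjusted p = 0.502). CML38 (AT1G76650), a calmodulin-like protein of hypoxic RNA granules, read 11.01, 11.30 and 11.31 after 9 h of hypoxia, against 10.96, 10.91 and 11.36 after 2 h of hypoxia. These overlapped, and the change was 0.13 (adjusted p = 0.745). Its difference from air was 0.90 (adjusted p = 0.104, and 0.00339 with the replicate block), and it passed under 6 of 23 alternatives, the fit of the 4 groups without a block among them (adjusted p = 0.0321).

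Of 10 fermentation genes listed, only PDC2 and a lactate dehydrogenase were measured; the others, the alcohol dehydrogenase ADH1 (AT1G77120) and the pyruvate decarboxylase PDC1 (AT4G33070) among them, are not named by the probe table and were not analysed here. PDC2 (AT5G54960), a pyruvate decarboxylase of ethanol fermentation, read 11.62, 11.54 and 11.64 after 9 h of hypoxia, against 11.14, 11.26 and 11.00 after 2 h of hypoxia. In air it read 6.19, 6.19 and 6.41 at 9 h and 8.40, 8.34 and 8.49 at 2 h. PDC2 rose by 0.47 ± 0.12 under hypoxia (SE, adjusted p = 0.00393) and fell by 2.14 in air (adjusted p = 9.61e-13), with a difference of 2.61 ± 0.17 (SE, adjusted p = 3.9e-10). The rise was lost when replicate 3 was left out of all groups (adjusted p = 0.111); the difference was not. AT4G17260, the lactate dehydrogenase, read 8.47, 8.73 and 8.81 after 9 h of hypoxia, against 8.70, 9.57 and 9.30 after 2 h of hypoxia. These groups overlapped, and its change of -0.52 (adjusted p = 0.0392) lost the call under 11 of 17 alternatives.

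Of 15 glycolysis genes measured, 4 rose and 3 fell, beside 13.8% and 17.7% of all probe sets; with so few genes the counts say little of the pathway, and single genes are given. The pyruvate kinase genes AT5G63680 and AT5G08570 rose by 1.01 and 0.87. The genes AT1G12000 and AT1G20950, for the pyrophosphate-dependent phosphofructokinase, fell by 1.08 and 0.98, and ENOC, an enolase-like gene, fell by 1.00. AT5G63680 read 8.73, 8.88 and 8.66 after 9 h of hypoxia, against 7.65, 7.78 and 7.83 after 2 h of hypoxia, and AT1G12000 read 7.55, 7.47 and 7.64 after 9 h of hypoxia, against 8.68, 8.65 and 8.56 after 2 h of hypoxia. Neither overlapped, and all 5 differed from their change in air.

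Genes of branched-chain amino acid breakdown, a mitochondrial source of electrons when sugar is short, rose in 5 of 8 cases and fell in none. Their median was 0.53, and of all probe sets 13.8% rose and 17.7% fell. In air 1 of the 8 rose, and the difference from air passed for 2, upward. Only 2 rose under hypoxia without replicate 2 of 2 h hypoxia. IVD (AT3G45300), isovaleryl-CoA dehydrogenase, read 10.36, 10.18 and 10.42 after 9 h of hypoxia, against 9.01, 8.35 and 8.85 after 2 h of hypoxia, a change of 1.59 ± 0.17 (SE, adjusted p = 5.44e-08) against 0.78 in air. MCCA rose by 1.04, a call lost without that array, and ETFBETA rose by 0.55. AKINBETA1, a subunit of the SnRK1 energy-sensing kinase, was the only 1 of 16 listed carbon starvation genes measured. It rose by 0.95 under hypoxia and changed by 0.54 in air, called there with the replicate block and with array medians subtracted. Its difference from air of 0.41 did not pass in the main fit and passed with the replicate block. Of 12 autophagy genes, 5 rose and 1 fell under hypoxia, and 2 rose in air. The difference from air passed upward for 2 of them and downward for 1. ATG8F, of the ubiquitin-like proteins that mark autophagosomes, rose by 0.81 under hypoxia and 0.59 in air. APG8H rose by 0.72 under hypoxia with -0.03 in air. ALDH7B4, an aldehyde dehydrogenase of stress, rose by 1.77.

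Mitochondrion-encoded genes rose in 9 of 16 cases and fell in none, beside 13.8% and 17.7% of all probe sets. Their median change was 0.47, and 7 rose without replicate 2 of 2 h hypoxia. Their mean was 6.094 to 6.237 over the 9 h hypoxic arrays, against 5.416 to 5.811 over the 2 h hypoxic arrays. In air it was 4.925 to 5.306 at 9 h and 5.054 to 5.201 at 2 h, with no gene called. These transcripts mostly carry no long polyA tail, and like the 25S signal their mean was highest after 9 h of hypoxia and lowest in air; the part of non-polyadenylated RNA in it was not tested. cox1, a cytochrome oxidase subunit, read 7.59, 8.22 and 7.52 after 9 h of hypoxia, against 7.05, 6.07 and 6.63 after 2 h of hypoxia, a change of 1.19 ± 0.19 (SE, adjusted p = 1.67e-05). In polysomal RNA relative to array means none of the 16 was called, beside 16.0% of all probe sets that rose and 17.5% that fell. Of 69 plastid-encoded genes 1 rose in total RNA, beside 13.8% of all probe sets, with a median of 0.26. With the replicate block 19 of them rose and 2 fell.

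The largest rises over the same hours in air were accompanied by smaller rises under hypoxia in these 5 genes. AT2G41250, a haloacid dehalogenase-like gene, read 8.32, 8.76 and 8.20 after 9 h of hypoxia and 6.47, 6.93 and 6.90 after 2 h of hypoxia. Its air arrays read 9.51, 9.58 and 9.55 at 9 h, against 5.76, 6.10 and 6.17 at 2 h. It rose in both, by 1.66 under hypoxia and 3.54 in air, and the difference of -1.88 ± 0.21 passed (SE, adjusted p = 6.59e-07). AT1G55960, a lipid-binding START domain gene, rose by 1.85 under hypoxia and 3.10 in air, with the difference lost without replicate number 1 and without replicate number 3 (highest adjusted p = 0.128). AT1G69570, the cycling DOF factor CDF5, rose by 1.10 under hypoxia and 2.50 in air, and AT3G21670, a nitrate transporter family gene, rose by 0.97 under hypoxia and 2.28 in air. AT2G04050, a MATE transporter, rose by 0.59 under hypoxia and 2.36 in air, with the hypoxic rise lost where replicate 3 was left out.

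Of the largest falls in air, 3 were also falls under hypoxia, by less. AT3G62550, a universal stress protein gene, read 8.85, 8.79 and 8.91 after 9 h of hypoxia and 9.90, 10.07 and 9.98 after 2 h of hypoxia. Its air arrays read 6.55, 6.74 and 6.90 at 9 h, against 10.17, 10.07 and 10.33 at 2 h. The 2 h groups were near each other, while at 9 h the hypoxic arrays lay above the air arrays. It fell by 1.13 under hypoxia and by 3.45 in air. CCL (AT3G26740), whose transcript is known for its daily rhythm, fell by 0.73 under hypoxia and 3.12 in air, and AT4G34950 fell by 1.27 under hypoxia and 2.87 in air. GI, a clock gene, lay between 3.94 and 4.50 on the 12 arrays and was called in no comparison.

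Over all 640 probe sets that rose in air, the median change was 0.245 under hypoxia and 0.74 in air, and 66.6% were positive under hypoxia. Over the 965 that fell in air, the median was -0.298 under hypoxia and -0.627 in air, and 73.0% were negative under hypoxia. Because these probe sets were chosen by their change in air, the larger size there is partly set by that choice. The test of the difference passed downward for 330 of the 640 and upward for 345 of the 965.

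**Figure D5:**
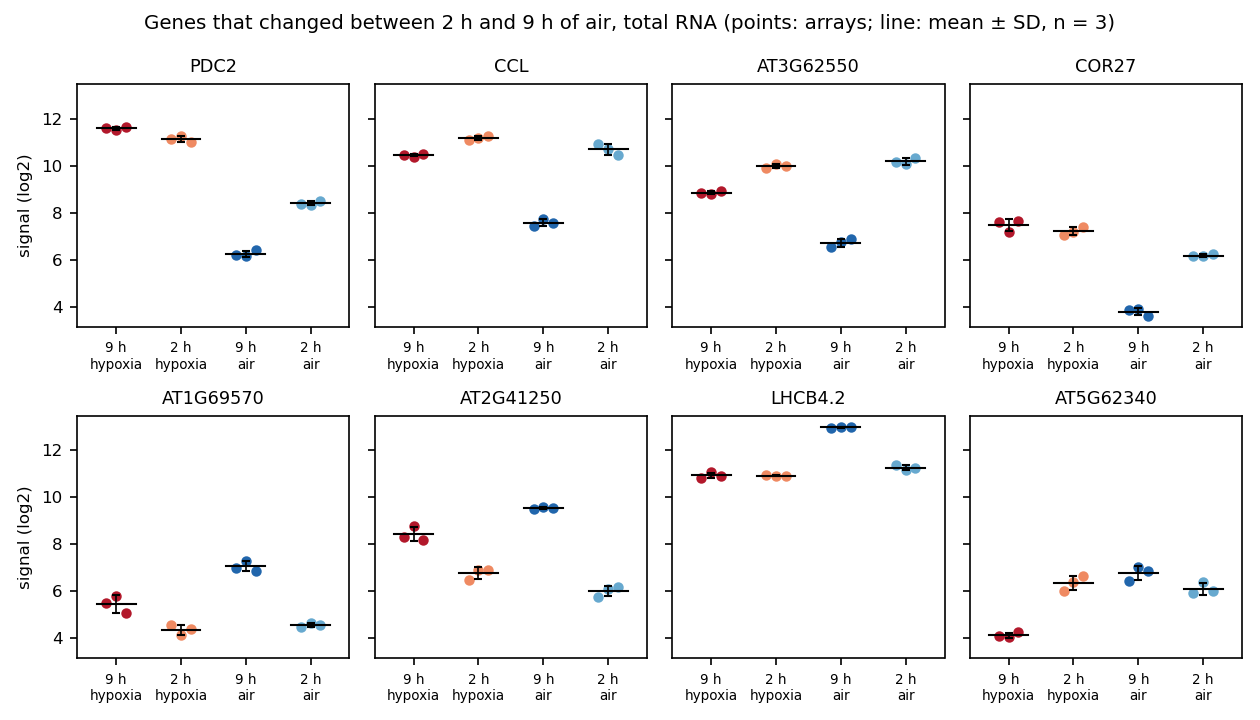
Log2 signal of 8 genes that changed between 9 h and 2 h of air, on each total RNA array by group, with means and SD (n = 3). PDC2, CCL, AT3G62550 and COR27 were lower at 9 h than at 2 h of air, while their 9 h hypoxic arrays lay above the 9 h air arrays; LHCB4.2 rose in air, with a change of 0.00 under hypoxia.

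Some genes were called with time in air and not under hypoxia in the main fit. LHCB4.2 (AT3G08940), an antenna protein of photosystem II, read 10.83, 11.06 and 10.90 after 9 h of hypoxia and 10.96, 10.92 and 10.91 after 2 h of hypoxia. On the air arrays it read 12.97, 12.98 and 12.99 at 9 h, against 11.39, 11.16 and 11.24 at 2 h, a change of 1.71 (adjusted p = 2.4e-08) with 0.00 under hypoxia. EXPA8, an expansin, rose by 2.16 in air with -0.15 under hypoxia. AT3G01060 rose by 2.18, AT5G48490, a lipid-transfer protein gene, by 2.06 and SIS by 1.98 in air, with 0.26, 0.14 and 0.17 under hypoxia.

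COR27 (AT5G42900), a cold- and clock-regulated gene, read 7.62, 7.17 and 7.63 after 9 h of hypoxia and 7.07, 7.18 and 7.40 after 2 h of hypoxia. On the air arrays it read 3.88, 3.90 and 3.62 at 9 h, against 6.15, 6.17 and 6.24 at 2 h. It fell by 2.38 in air, with 0.26 under hypoxia. AT4G16146, AT1G56300, a DnaJ gene, and AT2G21130, a cyclophilin, fell by 3.11, 2.55 and 2.18 in air, with -0.29, 0.47 and 0.10 under hypoxia. AT5G35735 fell by 2.15 in air with -0.36 under hypoxia. Without replicate 2 of 2 h hypoxia, AT5G35735 and AT4G16146 were called under hypoxia, at -0.805 and -0.447 (limma adjusted p = 0.0485 and 0.0466). AT1G56300 was called under hypoxia in 3 of 17 alternatives. The differences between hypoxia and air of all these genes passed the test in the main fit, that of AT5G35735 not without replicate number 1 (adjusted p = 0.0563).

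Other genes moved alike in both, with no difference passing. AT3G16800, a protein phosphatase gene, rose by 2.60 under hypoxia and 2.07 in air (difference 0.53, adjusted p = 0.505), and AT1G69160 rose by 1.94 under hypoxia and 1.87 in air (difference 0.06 ± 0.22, SE, adjusted p = 0.903). AT1G69160 read 6.93, 7.22 and 6.93 after 9 h of hypoxia, against 5.15, 5.37 and 4.75 after 2 h of hypoxia. In air it read 6.90, 6.66 and 6.67 at 9 h, against 5.10, 4.84 and 4.67 at 2 h, so that the 2 h groups overlapped and the lowest 9 h hypoxic array stood just above the highest 9 h air array. AT5G47610, a RING-type gene, rose by 1.55 under hypoxia and 1.41 in air. AT5G43150 and AT2G21640, a marker of mitochondrial oxidative stress, rose by 1.78 and 1.59 under hypoxia and by 1.21 and 0.96 in air. AT5G43150 passed the difference under 5 of 23 alternatives, with the replicate block and with the 4 groups alone among them, and AT2G21640 under 2, the block being 1 of them. Falls of this kind were -1.44 under hypoxia and -0.90 in air for AT4G33960, -1.40 under hypoxia and -0.99 in air for AT1G29980, and -1.36 under hypoxia and -1.39 in air for AT1G19380. AT3G59080 changed by -1.37 under hypoxia and -0.75 in air, the air call being lost under 12 of 17 alternatives. The air calls of AT2G21640, AT5G47610, AT4G33960, AT1G29980 and AT1G19380 were each lost where at least 1 replicate number was left out, and so was the hypoxic call of AT1G19380. A difference that did not pass does not show equal changes, and AT4G33960 passed it with the replicate block and without replicate number 1.

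A small set moved in opposite directions. AT5G62340, a pectin methylesterase inhibitor-like gene, read 4.11, 4.04 and 4.25 after 9 h of hypoxia and 6.03, 6.38 and 6.65 after 2 h of hypoxia. In air it read 6.44, 7.02 and 6.86 at 9 h, against 5.93, 6.39 and 6.01 at 2 h. It fell by 2.22 under hypoxia and rose by 0.67 in air. UGT84A3 (AT4G15490), a glucosyltransferase of hydroxycinnamates, read 7.18, 7.11 and 7.00 after 9 h of hypoxia and 5.82, 5.32 and 5.46 after 2 h of hypoxia, and rose by 1.57 while it fell by 0.52 in air. AT2G47890, a CONSTANS-like B-box gene, rose by 1.18 and fell by 0.71 in air. The air calls in this set are the weaker side: of the 10 genes that the naming rule takes from it, all but AT2G47890 lost the air call under at least 1 of 17 alternatives.

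Of 47 UDP-glycosyltransferases, a detoxification family, 12 rose and 8 fell, the falls at about the share of all probe sets (17.7% fell and 13.8% rose). UGT73C1, UGT73B5 and UGT73B4 rose by 1.43, 1.35 and 1.29, while UGT71C1 fell by 1.48. UGT73C1 read 5.26, 5.19 and 5.25 after 9 h of hypoxia, against 3.85, 3.65 and 3.90 after 2 h of hypoxia, a change without overlap. Of 11 tau-class glutathione S-transferases 3 rose and 5 fell, or 1 rose and 4 fell without replicate 2 of 2 h hypoxia. Of 16 SWEET sugar transporters 3 rose and 2 fell, near the shares of all probe sets, with SWEET11, which exports sucrose from leaf cells, at 0.73. With array medians subtracted 22 UDP-glycosyltransferases rose and 6 fell, and 8 SWEET genes rose and 1 fell. With the replicate block 14 UDP-glycosyltransferases rose and 11 fell.

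Polysomal RNA of the same treatments gives a separate set of arrays for 9 h against 2 h of hypoxia. Relative to each array's mean, 3641 probe sets rose (16.0%) and 3988 fell (17.5%). Of the probe sets that rose in total RNA 62.9% also rose there, and of those that fell 72.7% also fell; 8 of each were called the other way. As deposited, without that centring, 1675 polysomal probe sets rose and 6671 fell. AT1G53540, AT3G54400 and Hop3 changed by 4.26, -3.32 and 3.55 in polysomal RNA. COR27, not called in total RNA, fell by 0.63 there, and PDC2 rose by 1.04.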

How the data were processed

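Total RNA signals of Affymetrix arrays were read as the log2 values that the authors deposited, from RMA per the submitters' processing notes (version and joint normalization of arrays: not given in the sources used here). The 64 control probe sets of 22810 stayed out, so 22746 were tested; 13513 have 1 gene in the probe table, 503 several and 8730 none, and the last 2 kinds are not named. The probe set with the highest mean stands for a gene (13355 genes).

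limma 3.58.1 (R 4.3.3) fitted 10 group means to all 30 arrays with 20 residual degrees of freedom. The contrasts tested were 9 h minus 2 h of hypoxia, the same in air, and their difference. A further contrast, in polysomal RNA, used values minus each array's mean, chosen after its array means were known. Adjusted p values are Benjamini-Hochberg, threshold 0.05, with no filter. The fit was tested on simulated data.

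Same-numbered arrays deviated together: correlations were 0.462, 0.174 and 0.213 between the hypoxic groups and 0.344, 0.336 and 0.216 between the air groups, so replicate numbers were taken to pair arrays from the data; the labels do not say so. The blocked value is given for part of the results where it changed a call or moved a count. Other list counts also moved with the block by some genes.

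Named genes are the 10 largest rises and 10 largest falls among genes called with no overlap between the hypoxic groups, 5 each way in air, in the difference and in each class of joint change, up to 5 called members of each list, and PDC2, AT4G17260, AT3G10040, CML38 and GI; the text gives part of them, and further list members by value. Members, lists and classes were chosen with earlier results of these data known. Alternatives were other sets of arrays, quantile and median scaling, an intensity trend, a filter on the dimmest 40 percent, the replicate block and leaving out each library or replicate number. Probe-level signals were not analysed here.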

Additional observations from a re-analysis of the deposited data

Results flagged for a closer look

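These genes and control signals stood out because hypoxia and air changed them differently, by the test of the difference, or because they lie outside the genes compared. Changes under hypoxia minus changes in air (9 h minus 2 h, log2) were 4.57 for AT1G63530, 4.06 for AT1G53540, 3.92 for AT2G29500, 3.51 for AT2G20500 and 3.43 for AT1G72800. They were -2.92 for AT3G54400, -2.88 for AT5G62340, -2.74 for AT4G11190, -2.71 for ZW9 and -2.71 for AT4G30170.

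Genes with opposite calls had differences of 2.09 for UGT84A3, 1.89 for AT2G47890, 1.71 for AT1G67300, a sugar transporter-like gene, 1.57 for UGT87A2 and 1.38 for AT1G77770. Downward, they were -2.41 for AT1G29660, a GDSL-type lipase gene, -2.0 for AT4G01330, -1.93 for AT5G02230 and -1.74 for AT2G22420. The last is a peroxidase outside the peroxidase list above. PDC2 had 2.61, with a rise under hypoxia and a fall in air.

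Outside the genes compared, the 25S rRNA probe set averaged 13.14 after 9 h of hypoxia and 10.69 after 2 h of hypoxia, above 6.43 after 9 h of air and 6.85 after 2 h of air. The Bacillus poly-A controls averaged 6.89 after 9 h of hypoxia and 6.39 after 2 h of hypoxia, above 5.83 after 9 h of air and 5.90 after 2 h of air. The cause of these differences was not tested.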

How the results depend on the processing

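No called change of a named gene reversed under any alternative run. Of 4876 pairs of a gene result and a setting, 4580 kept the side of the threshold, 263 lost the call and 33 gained it. Direction was compared only for results called in the main fit, so changes that were not called may differ in sign. Of 239 calls of named genes, 184 were lost under no setting and 29 only where a library or replicate number was left out. Leaving out libraries or replicate numbers gave 4742 to 6500 probe sets called between the hypoxic groups, 742 to 1371 in air, 2047 to 4096 for the difference and 5116 to 7231 in polysomal RNA. It gave 1676 to 3399 probe sets with a hypoxic change beyond air, 261 to 519 with like changes, 56 to 180 with opposite changes and 207 to 401 with a change in air only. Outside polysomal RNA the lowest count of each came where replicate number 3 was left out of all groups. Leaving out replicate number 1 or 2 leaves as many arrays. It gave 6388 and 4744 probe sets called between the hypoxic groups, and 3614 and 2279 for the difference. The cause was not tested. With the replicate block, 408 probe sets changed in opposite directions. CML38 passed in air and in the difference under 6 alternatives each, the replicate block (adjusted p = 0.00339 for the difference) and the same 4 groups without it (adjusted p = 0.0321) among them, over a range of 0.00339 to 0.303. AT3G10040 passed in air under 3, the block among them. Small changes depend on the scaling, since subtracting medians turned the sign of some list medians, such as that of serine carboxypeptidase-like genes (0.12, against -0.02). Arrays give no reading of depth; low signals such as those of GI have no detection call here.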

Other observations

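Some families outside the groups above are given by count, beside 13.8% of all probe sets that rose and 17.7% that fell. Of 29 serine carboxypeptidase-like genes 10 fell and none rose between 9 h and 2 h of hypoxia, but 9 rose and 8 fell with array medians subtracted. SCPL34 fell by 1.05 under hypoxia and 1.13 in air. Of 20 beta-glucosidase genes 6 fell and none rose, or 5 fell and 3 rose with array medians subtracted, with BGLU46 at -1.17 and BGLU42 at -1.01 under hypoxia. Of 12 ubiquitin-conjugating enzyme genes 4 rose and none fell, or 4 rose and 1 fell without replicate 2 of 2 h hypoxia; UBC18 read 7.96, 8.21 and 8.12 after 9 h of hypoxia, against 7.36, 7.62 and 7.45 after 2 h of hypoxia, without overlap.

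Both cytochrome c genes moved, in different directions: CYTC-2 rose by 1.02 under hypoxia and 0.92 in air, while CYTC-1 fell by 0.34 under hypoxia, a call lost under 6 of 17 alternatives, with 0.10 in air. The 3 measured LHCB4 genes stayed within 0.06 under hypoxia, while in air LHCB4.2 and LHCB4.1 rose by 1.71 and 0.47 and LHCB4.3 fell by 1.15. WRKY53, a stress and senescence transcription factor, rose by 1.14, and AUR1, a mitotic kinase, fell by 0.75. After 1 h of recovery AT1G53540 read 10.72, 10.83 and 11.01, above its 9 h hypoxic arrays, and AT2G20500 read 7.23, 7.24 and 7.55, below its own.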
